A study of Mus musculus with 13 samples.

Results

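Serpins are serine protease inhibitors of a common fold, and the members described here are all genes of the deposited table whose symbol begins with Serpin, 63 of 24170 genes. They were read in 4T1 tumors, grown from a mouse mammary carcinoma cell line placed orthotopically in female BALB/c hosts, the strain the line came from, so the hosts kept an immune system. Polyadenylated RNA was sequenced from 13 libraries in 5 groups. The vehicle group (3 libraries) received PBS with no cyclophosphamide (CPA). CPA, an alkylating prodrug that the liver activates, was injected at 130 mg/kg every 6 days, and tumors were taken after 2 cycles (3 libraries), 4 cycles (3 libraries) or 7 cycles (2 libraries). Regrowth tumors (2 libraries) had received 4 cycles and were taken 18 days after drug was halted, when tumor growth had resumed. Vehicle and 2-cycle mice were 10 to 11 weeks old, 4-cycle mice 12 to 13 weeks, and 7-cycle and regrowth mice 14 to 15 weeks, so that cycle number and age cannot be told apart beyond 2 cycles. Each library was made from RNA of unsorted tissue pooled over 2 to 3 tumors, a model that mixes carcinoma, stromal and immune cells of a single cell line's tumors.

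A serpin exposes a loop that resembles a substrate. The protease cuts the loop, the serpin snaps into a new shape, and the protease is carried along and trapped, so that each inhibitor molecule is used up in the act. Some members have lost this activity and serve as chaperones or signaling proteins. Serpins control plasmin formation, clotting, complement and the granule proteases of neutrophils and cytotoxic lymphocytes, and the families of clades A and B are expanded in the mouse into clusters of close copies.

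The table held 1 FPKM value (sequenced fragments scaled to transcript length and to the size of the library) per gene and group. No value per library was used, so there is no SD, n or p-value beside any level, and no difference below was tested. A fold is a ratio of (FPKM + 0.1) values, which understates the differences of low genes, and log2 differences are on the same scale. A gene counted as higher or lower where the fold was at least 2 and the larger of both FPKM values was 1 or more. Genes meeting that minimum are called tested below. The depth behind the group values is unknown, and low values rest on few reads. The keratins Krt8 and Krt18 and the adhesion molecule Epcam, defining markers of an epithelial tumor, stood at 262 to 348, 270 to 421 and 55.2 to 148 FPKM over the 5 groups, so the labelled tissue carried its markers in every group. These markers were named after their values were seen.

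Of the 63 serpins, 19 reached 1 FPKM in at least 1 group and 44 did not. Of the 44, 17 peaked between 0.1 and 1 FPKM, 23 stayed under 0.1 FPKM and 4 were listed at 0 in all groups. On the table's coordinates (genome build mm9), 24 clade A members lay together on chr12:104854884-105652539, and 7 of them reached 1 FPKM. The clade B members formed a cluster of 12 on chr1:108757756-109505555, with 2 at 1 FPKM or more, and a cluster of 15 on chr13:32933960-34094663, with 5. Expression was therefore uneven inside each cluster, with members above 1 FPKM beside neighbors at or near 0.

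**Figure D1:**
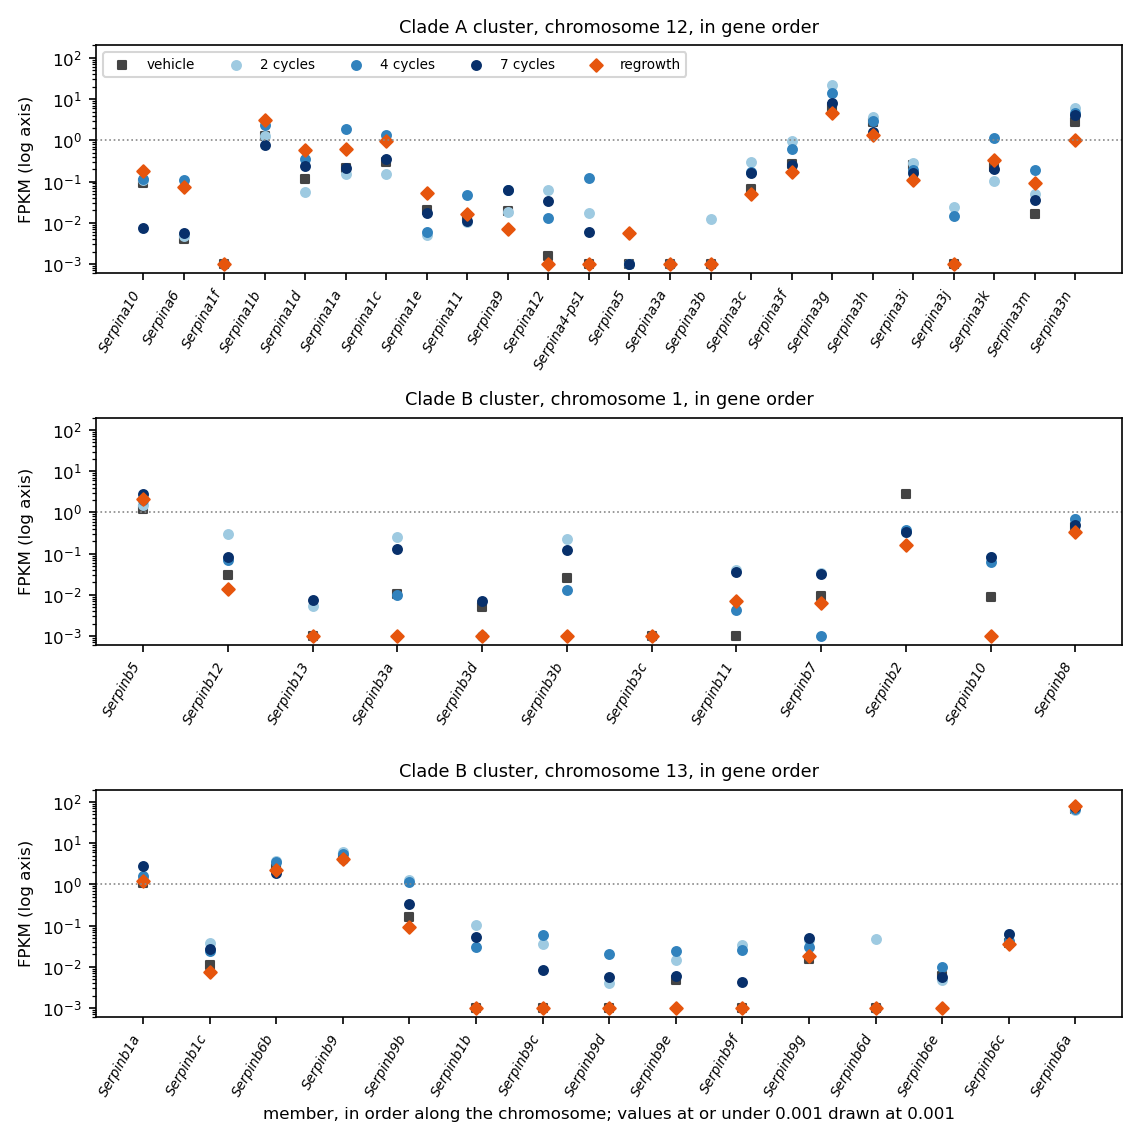
FPKM (log axis) of the members of the clade A cluster on chromosome 12 and of the clade B clusters on chromosomes 1 and 13, drawn in gene order, with 1 symbol per group and values at or under 0.001 drawn at 0.001. The dotted line marks 1 FPKM, which 7 of 24, 2 of 12 and 5 of 15 members reached in at least 1 group.

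The summed serpin level was 314 FPKM in vehicle tumors, 350 after 2 cycles, 340 after 4 cycles, 283 after 7 cycles and 269 in regrowth. As a share of all FPKM it was 0.147%, 0.154%, 0.143%, 0.109% and 0.107% in that order. The 4-cycle sum was thus above vehicle, and the 4-cycle share below it. In vehicle tumors 5 genes supplied 85.7% of it. Serpinh1, Serpinb6a and Serpine2 led them. The share of the 5 was 74.5% after 2 cycles, 79.1% after 4, 83.0% after 7 and 86.5% in regrowth. Serpinh1 was the first-ranked member in vehicle tumors and after 2 cycles, Serpine2 after 4 and 7 cycles, and Serpinb6a in regrowth.

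**Figure D2:**
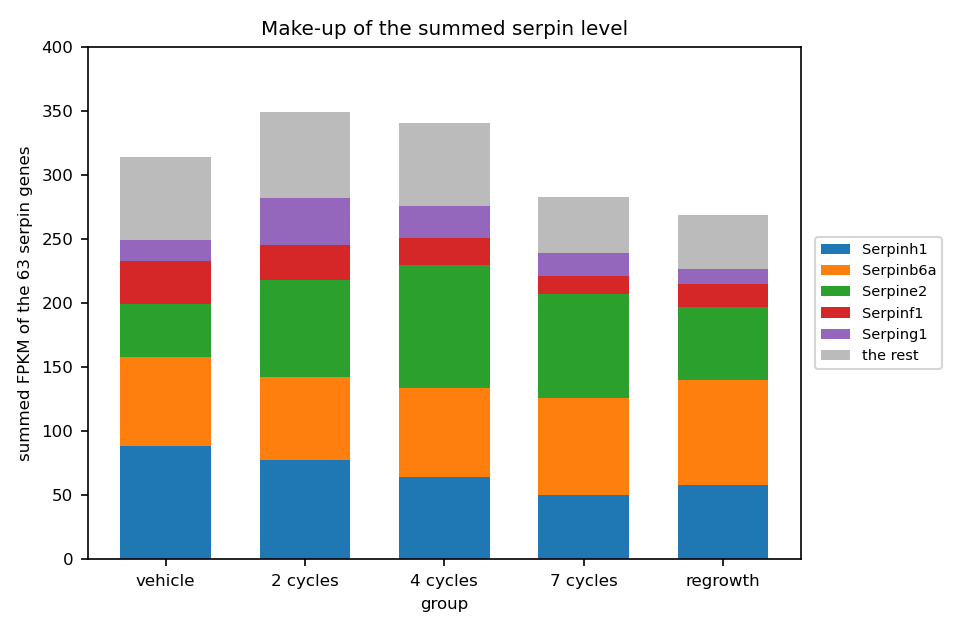
Summed FPKM of all 63 serpin genes in each group as stacked bars from 0, split into Serpinh1, Serpinb6a, Serpine2, Serpinf1, Serping1 and the rest. The bars reach 314, 350, 340, 283 and 269 FPKM from vehicle to regrowth, and the Serpine2 segment is widest after 4 cycles, at 96.1 FPKM.

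Counted across the family, more members stood at least 2-fold above vehicle than below it after 2 and 4 cycles, and the reverse held after 7 cycles and in regrowth. After 2 cycles 16 members met the minimum, and 4 were higher and 2 lower, where 3.23% of all 11711 genes tested were higher and 0.811% lower. After 4 cycles 6 of 19 members were higher and 1 lower, against 3.65% and 1.6% of 11718 genes. After 7 cycles 2 of 15 were higher and 3 lower, against 4.77% and 3.09% of 11766 genes. In regrowth 1 of 15 was higher and 3 were lower, against 1.72% and 2.3% of 11615 genes. The median log2 difference of the members tested was 0.38, 0.59, -0.18 and -0.48 in that order, and over all genes tested it was 0.04, 0.06, 0.00 and -0.01. All 4 comparisons share the vehicle value. Serpina1a, Serpina1c, Serpina3k and Serpinb9b were under 1 FPKM in vehicle tumors and entered the counts only through groups where they were high. Serpinb2 met the minimum only through vehicle tumors, where it was high, and is in the lower count of all 4 comparisons. Without the serpins that share at least 10% of their 50-base words with another serpin, an alternative chosen after seeing the data, 2 members in place of 6 were higher after 4 cycles, and 2 each were higher and lower after 7 cycles. With 1 added to each FPKM in place of 0.1, 2 each were higher and lower after 2 cycles.

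**Figure D3:**
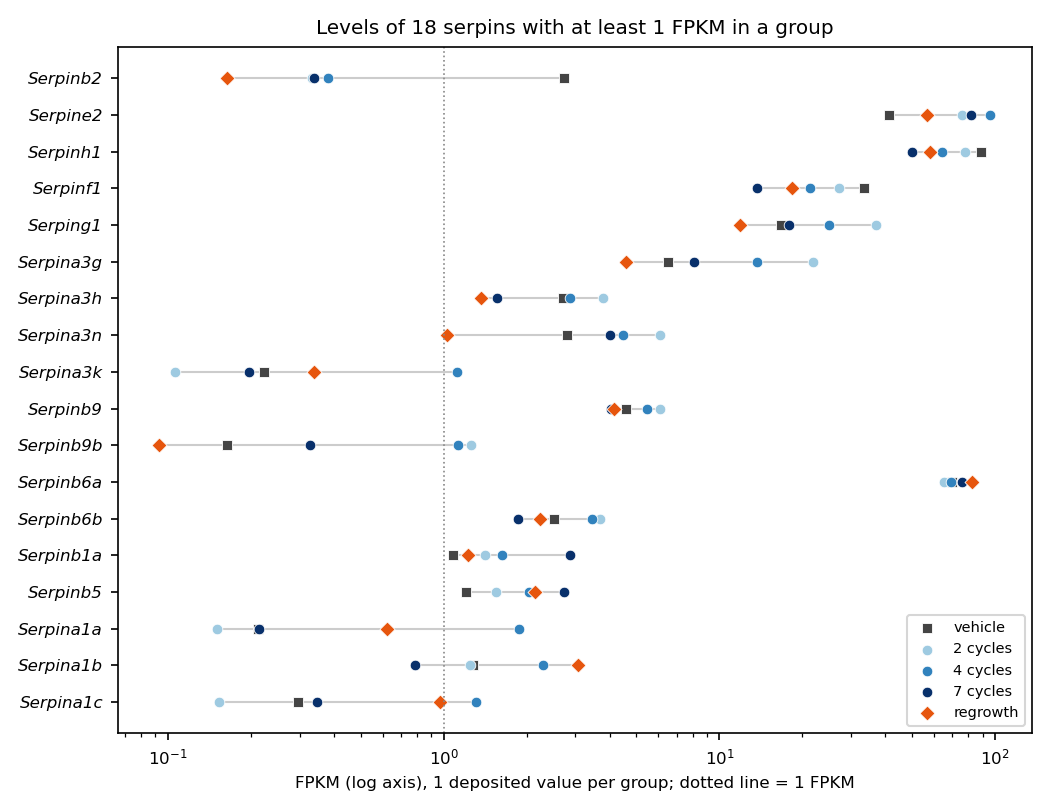
FPKM (log axis) of 18 of the 19 serpins that reached 1 FPKM in at least 1 group, with squares for vehicle, circles for 2, 4 and 7 cycles and diamonds for regrowth, 1 deposited value each. The vehicle square is the rightmost symbol of Serpinb2, Serpinh1 and Serpinf1, while the regrowth diamond is the leftmost of Serpina3g, Serpina3h, Serpina3n, Serping1, Serpinb2 and Serpinb9b.

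**Figure D4:**
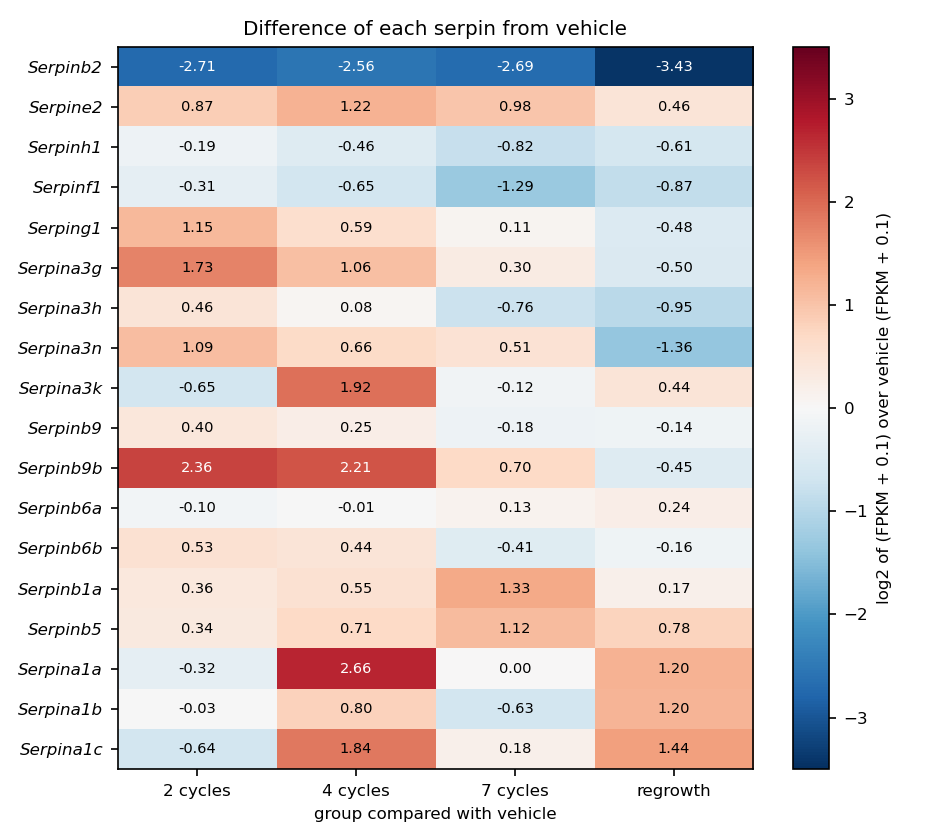
Log2 of (FPKM + 0.1) over the vehicle (FPKM + 0.1) for the same 18 serpins after 2, 4 and 7 cycles and in regrowth, with red for higher and blue for lower than vehicle. Serpinb2 is the deepest blue, from -2.56 to -3.43, and Serpina1a after 4 cycles the deepest red, at 2.66.

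Inhibitors of plasminogen activation stood on both sides of vehicle. Serpinb2, or PAI-2, inhibits urokinase and is largely kept inside cells, as in macrophages and keratinocytes (chr1:109407999-109422177, mm9). It had the widest difference from vehicle of the 19 serpins. The vehicle level was 2.73 FPKM, and the others were 0.332 after 2 cycles, 0.380 after 4, 0.338 after 7 and 0.163 in regrowth. Vehicle tumors alone were above 1 FPKM, and the other groups were 6.56-fold, 5.90-fold, 6.47-fold and 10.8-fold lower. Serpinb2 shares 10.4% of its 50-base words with Serpinb10, its neighbor, which did not exceed 0.0821 FPKM. With 1 added to each FPKM in place of 0.1, Serpinb2 stayed at least 2-fold lower in all 4 comparisons.

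Serpine2, or protease nexin-1, is a cell surface inhibitor of thrombin and urokinase, and went the other way (chr1:79790895-79855240, mm9). Its levels were 41.3 FPKM in vehicle tumors, 75.7 after 2 cycles, 96.1 after 4, 81.4 after 7 and 56.8 in regrowth. All treated groups were above vehicle, by 1.83-fold, 2.32-fold, 1.97-fold and 1.37-fold, and only the 4-cycle value passed 2-fold. In regrowth Serpine2 was 1.69-fold lower than after 4 cycles.

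The promoter window of Serpinb2 is shown because this gene had the widest difference of the 19. RefSeq windows (GRCm38.p6) were matched to 52 of the 63 members by symbol, and to 14 of the 19 above 1 FPKM. Serping1, Serpina3h, Serpina3k and Serpinb1a were among those with no window. The sequence gives the 110 bases before one of the annotated starts of Serpinb2, at chr1:107511313-107511422 on the plus strand. Capitals mark a match to the AP-1 letters TGANTCA, which both strands of the 250 bases before the start hold in 6.75% of 32851 windows, and a TATA box (TATAAA), held by 12.4%.
Serpinb2: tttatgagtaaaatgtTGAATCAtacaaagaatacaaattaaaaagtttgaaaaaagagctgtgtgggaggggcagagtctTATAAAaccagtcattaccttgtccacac
A match describes letters in this window and is not a bound site.

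The proteases on which these inhibitors act were near vehicle levels. Plau, the urokinase-type activator, ranged from 37.4 to 45.8 FPKM over the 5 groups, and Plat, the tissue-type activator, from 9.09 to 12.4 FPKM. Plaur, the urokinase receptor, ranged from 28.0 to 46.3 FPKM. Plau and Plaur were named after their values were seen. Of 15 plasminogen and coagulation proteases listed, 7 reached 1 FPKM. Among these, 2 of 6 tested were at least 2-fold higher after 2 cycles, against 3.23% of all genes tested. They were the clotting factors F7 (1.31 FPKM in vehicle, 5.09 after 2 cycles, 0.372 in regrowth) and F10 (2.03, 6.35 and 0.603 FPKM). Both were thus above vehicle after 2 cycles and at least 2.99-fold below it in regrowth. Of 10 cofactors and clearance receptors of serpins tested, 1 was lower in each comparison with vehicle and none higher. Over all genes tested, 0.811%, 1.6%, 3.09% and 2.3% were lower after 2, 4 and 7 cycles and in regrowth. Lrp1, the endocytic receptor that clears serpin-protease complexes, stood at 34.5 FPKM in vehicle tumors, 37.9, 28.7 and 16.1 after 2, 4 and 7 cycles and 18.2 in regrowth, which is 2.13-fold lower after 7 cycles.

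A pair of serpins that work on collagen, not on proteases, stood lower at each later time under treatment. Serpinh1, also called HSP47, is the chaperone of the endoplasmic reticulum that folds procollagen (chr7:106493884-106501749, mm9). It stood at 88.5 FPKM in vehicle tumors, 77.6 after 2 cycles, 64.3 after 4, 50.1 after 7 and 57.9 in regrowth. The folds below vehicle were 1.14, 1.38, 1.77 and 1.53, all short of 2. Serpinf1, or pigment epithelium-derived factor, is a secreted collagen-binding protein known as an inhibitor of vessel growth (chr11:75223530-75236125, mm9). It stood at 33.6 FPKM in vehicle tumors and 27.1, 21.4 and 13.6 after 2, 4 and 7 cycles, with 18.3 in regrowth. It was 2.45-fold lower than vehicle after 7 cycles, and 1.24-fold, 1.57-fold and 1.83-fold lower in the other groups. The order of the groups was the same for both genes.

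Genes for collagens and their folding, 19 in all, summed to 1706 FPKM in vehicle tumors, 1290 after 2 cycles, 1081 after 4, 870 after 7 and 1015 in regrowth, the same order of groups. Of the 19, none was at least 2-fold lower after 2 cycles, 4 after 4 cycles, 7 after 7 cycles and 5 in regrowth, and none was higher. Over all genes tested, 0.811%, 1.6%, 3.09% and 2.3% were lower in that order, and 3.23%, 3.65%, 4.77% and 1.72% higher. The 7 lower after 7 cycles were all collagens, and each folding gene was then within 1.68-fold of vehicle. The fall of the sum thus came from the collagens. The median log2 differences of the 19 were -0.20, -0.51, -0.54 and -0.40. Col1a1 stood at 380 FPKM in vehicle tumors and 76.5 after 7 cycles, and Col3a1 at 285 and 87.1 FPKM. The general folding enzymes P4hb (153 to 171 FPKM) and Ppib (119 to 134 FPKM), named after their values were seen, showed no such gradient. The 12 fibroblast markers, which include 3 of these collagens, summed to 1129 FPKM in vehicle tumors, 720 after 2 cycles, 519 after 4, 345 after 7 and 483 in regrowth, with each of the 12 reaching 1 FPKM. Those 3 collagens made up 936 of the 1129 FPKM, and the other 9 markers summed to 193, 156, 135, 119 and 132 FPKM from vehicle to regrowth. Not all markers were lower, since 2 of the 12 were at least 2-fold above vehicle after 2, 4 and 7 cycles, Dpt (1.99 FPKM in vehicle tumors, 7.55 after 7 cycles) and Pi16 (2.36 and 6.52 FPKM). Dcn stood at 24.3 and 39.0 FPKM in those groups. Pi16 and Dcn were named after their values were seen. Their part in the levels of Serpinh1 and Serpinf1 was not tested. In RNA of unsorted tumor tissue, fewer cells of a type and less RNA per cell cannot be told apart.

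Serping1 and members of the Serpina3 group were highest after 2 cycles and lowest in regrowth. Serping1 encodes C1 inhibitor, which blocks the C1r and C1s proteases of complement, the mannan-binding lectin proteases and plasma kallikrein (chr2:84605516-84615586, mm9). Its levels were 16.7 FPKM in vehicle tumors, 37.0 after 2 cycles, 25.0 after 4, 17.9 after 7 and 11.9 in regrowth. Only the 2-cycle value was at least 2-fold above vehicle (2.21-fold), with 1.5-fold after 4 cycles and 1.08-fold after 7, and regrowth was 1.40-fold lower. Of its targets, C1ra stood at 5.26 FPKM in vehicle tumors and between 9.97 and 10.5 FPKM after 2, 4 and 7 cycles, while Masp1 had 1.43 FPKM in the vehicle group against 2.86 FPKM at 2 cycles. Neither passed 2-fold in a comparison with vehicle. C1ra thus kept its level up to 7 cycles, where Serping1 was 2.06-fold below its own 2-cycle level.

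Serpina3g, known in the mouse as Spi2A, is an intracellular inhibitor of lysosomal cysteine cathepsins described in memory T cells (chr12:105452753-105480144, mm9). It stood at 6.52 FPKM in vehicle tumors, 21.8 after 2 cycles, 13.7 after 4, 8.05 after 7 and 4.59 in regrowth. The 2-cycle and 4-cycle values were 3.31-fold and 2.09-fold higher than vehicle, and regrowth was 2.95-fold below 4 cycles. Serpina3f, whose annotated span overlaps that of Serpina3g by 6587 bases from a shared start, had the same order of groups except that 7 cycles stood just below vehicle. Its levels were 0.263, 0.960, 0.610, 0.251 and 0.172 FPKM from vehicle to regrowth. Reads in the shared span cannot be given to either gene with certainty, and the transcripts of Serpina3g share 15.0% of their 50-base words with other serpins and those of Serpina3f 8.91%.

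Serpina3n, a secreted inhibitor that blocks granzyme B in the mouse and is made in acute-phase responses, stood at 2.80 FPKM in vehicle tumors, 6.08 after 2 cycles, 4.48 after 4, 4.01 after 7 and 1.02 in regrowth (chr12:105644917-105652539, mm9). It was 2.13-fold above vehicle after 2 cycles and 2.58-fold below it in regrowth. Regrowth was therefore 4.08-fold below 4 cycles. Serpina3h stood at 2.72, 3.77, 2.88, 1.57 and 1.36 FPKM, and no group was 2-fold from vehicle, although regrowth was 2.03-fold below 4 cycles and 7 cycles 2.32-fold below 2 cycles. Serpina3h shares 21.9% of its 50-base words with other serpins.

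The promoter windows of Serpina3g and Serpina3f are shown because both genes were highest after 2 cycles and both windows hold letters of the kind that STAT factors are known to read downstream of interferons. Both are RefSeq windows on GRCm38.p6, plus strand, at chr12:104236087-104236146 (bases 60 to 1 before the start) and chr12:104214394-104214453 (bases 150 to 91). Capitals mark TTCNNNGAA, the gamma-activated site, held on either strand by 7.02% of all windows and by 8 of the 52 serpin genes with a window. The 2 shares are not on the same unit, since a gene can have more than 1 window. The 8 also include Serpinb2, lower than vehicle in all groups, Serpinb6a, near vehicle in all groups, and Serpina1f, at 0 in all groups.
Serpina3g: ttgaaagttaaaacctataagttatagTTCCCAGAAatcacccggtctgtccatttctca
Serpina3f: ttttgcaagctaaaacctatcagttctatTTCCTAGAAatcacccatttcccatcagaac
Over the whole 250 bases the windows aligned with 39.5% identity.

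The 16 interferon-stimulated genes listed summed to 88.8 FPKM in vehicle tumors, 352 after 2 cycles, 386 after 4, 357 after 7 and 128 in regrowth. All 16 were at least 2-fold above vehicle after 2 and 4 cycles, 15 after 7 cycles and 1 in regrowth. The shares over all genes tested were 3.23%, 3.65%, 4.77% and 1.72% after 2, 4 and 7 cycles and in regrowth. The sum of the 16 after 7 cycles was near that after 2 cycles, where Serpina3g was 2.69-fold and Serping1 2.06-fold below 2 cycles. The 10 cytotoxic lymphocyte markers summed to 9.09, 36.1, 23.7, 12.2 and 9.61 FPKM from vehicle to regrowth, an order that Serping1 and Serpina3g share as far as 7 cycles. Of these markers 8 reached 1 FPKM, and the defining Prf1 stood at 1.53 FPKM in vehicle tumors, 10.5 after 2 cycles and 0.796 in regrowth. Other lists were also high after 2 cycles. Adipocyte markers summed to 43.4, 142, 113, 122 and 66.2 FPKM from vehicle to regrowth, with 6 of 7 tested at least 2-fold above vehicle after 2 cycles. Mast cell markers summed to 4.03, 10.3, 5.32, 3.42 and 4.17 FPKM, with 4 of 5 above it. Over all genes tested, 3.23% were at least 2-fold above vehicle after 2 cycles. Some markers of both lists were under 1 FPKM in vehicle tumors and met the minimum only through groups where they were higher. Macrophage markers summed to 915, 1263, 1648, 1003 and 798 FPKM, highest after 4 cycles and lowest in regrowth, with 0 of 12 at least 2-fold above vehicle after 2 cycles. The part of these cells in the serpin levels was not tested.

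Intracellular clade B serpins guard the cytosol of immune cells against their own granule proteases. Serpinb9, an inhibitor of granzyme B, stood at 4.59, 6.07, 5.46, 4.04 and 4.14 FPKM from vehicle to regrowth, within 1.32-fold of vehicle in each group. Serpinb9b, which inhibits granzyme M in the mouse, differed more (chr13:33119282-33132427, mm9). It stood at 0.164 FPKM in vehicle tumors, 1.26 after 2 cycles, 1.12 after 4, 0.328 after 7 and 0.093 in regrowth. The 2-cycle and 4-cycle groups alone were above 1 FPKM, 5.15-fold and 4.63-fold above vehicle, and regrowth was 6.33-fold below 4 cycles. These levels are close to the minimum, and with 1 added to each FPKM the count of higher members after 2 cycles was 2 in place of 4.

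Serpinb6a, an inhibitor of cathepsin G, was the steadiest of the 5 leading members, at 69.4, 65.0, 68.9, 75.8 and 82.1 FPKM from vehicle to regrowth, a range within 1.18-fold of vehicle (chr13:34009786-34094663, mm9). Its span overlaps that of Nqo2 and 1110046J04Rik, which did not exceed 2.86 and 3.35 FPKM. Serpinb6b, an inhibitor of granzyme A in the mouse, stood at 2.51, 3.68, 3.46, 1.86 and 2.24 FPKM, and was nowhere 2-fold from vehicle. Serpinb1a, the inhibitor of neutrophil elastase in the cytosol of neutrophils, stood at 1.08 FPKM in vehicle tumors, 1.42 after 2 cycles, 1.62 after 4, 2.87 after 7 and 1.22 in regrowth (chr13:32933960-32943054, mm9). It was 2.52-fold above vehicle after 7 cycles and within 1.46-fold in the other groups.

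The granule proteases followed different courses. Of 12 tested, 10 were at least 2-fold above vehicle after 2 cycles and 8 after 4, against 3.23% and 3.65% of all genes tested. At later times fewer were tested, with 3 of 8 higher after 7 cycles and 3 of 6 in regrowth, against 4.77% and 1.72%. Several of the 12, Elane and Ctsg among them, were under 1 FPKM in vehicle tumors. These met the minimum only through groups where they were high. Gzmb, granzyme B, stood at 1.83 FPKM in vehicle tumors and 9.48, 5.44 and 1.36 after 2, 4 and 7 cycles, with 1.45 in regrowth, so that Gzmb was 4.97-fold above vehicle where Serpinb9 was 1.32-fold above it. Elane, neutrophil elastase, stood at 0.0870, 1.08, 2.92, 4.47 and 0.194 FPKM from vehicle to regrowth, and Ctsg, cathepsin G, at 0.144, 2.94, 3.78, 4.66 and 0.250 FPKM. Elastase and cathepsin G were thus highest after 7 cycles, as was Serpinb1a. The 12 neutrophil markers, which include Elane, summed to 101 FPKM in vehicle tumors, 329, 350 and 514 after 2, 4 and 7 cycles and 82.4 in regrowth, and all 12 reached 1 FPKM. S100a8 and S100a9 made up 200 and 189 FPKM of the 7-cycle sum. Not all 12 were highest after 7 cycles. At that time 10 were at least 2-fold above vehicle and 1 below it, Mmp9 (45.9 FPKM in vehicle tumors, 17.8 after 7 cycles). Over all genes tested, 4.77% were higher and 3.09% lower after 7 cycles. S100a8, S100a9 and Mmp9 were named after their values were seen. Skeletal muscle markers also stood apart in the 7-cycle group, where their sum was 500 FPKM against 78.1 FPKM in the vehicle group and 7.17 FPKM at 4 cycles, and all 10 were at least 2-fold above vehicle. With 1 added to each FPKM, Serpinb1a was no longer 2-fold above vehicle after 7 cycles (log2 difference 0.90). The part of neutrophils or muscle in the level of Serpinb1a was not tested.

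The windows of Serpinb9 and Serpinb6a are shown because they are the only 2 of the 52 serpin genes with a window that hold the interferon-stimulated response element (GAAA, any 2 bases and GAAA, either strand), which 2.98% of all windows hold. They lie at chr13:33004461-33004520 (plus strand, bases 80 to 21 before the start) and chr13:34002845-34002904 (minus strand, bases 110 to 51) on GRCm38.p6. Capitals mark the element, and in Serpinb6a also the gamma-activated site that overlaps it.
Serpinb9: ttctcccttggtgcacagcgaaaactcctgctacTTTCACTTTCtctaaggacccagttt
Serpinb6a: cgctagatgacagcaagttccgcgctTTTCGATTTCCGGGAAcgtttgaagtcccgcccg
Both genes lay within 1.32-fold of vehicle in all groups, while all 16 interferon-stimulated genes were at least 2-fold above it after 2 and 4 cycles. The part of the element or of interferon in the levels of Serpinb9 and Serpinb6a was not tested.

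Serpinb5, or maspin, is an epithelial serpin without protease inhibition, described in mammary epithelium as lost in invasive carcinoma (chr1:108757756-108779925, mm9). It stood at 1.20 FPKM in vehicle tumors, 1.55 after 2 cycles, 2.03 after 4, 2.73 after 7 and 2.14 in regrowth. The level was above vehicle in every other group and 2.17-fold above it after 7 cycles. The 10 epithelial markers summed to 818 FPKM in vehicle tumors and 751, 886 and 1190 after 2, 4 and 7 cycles, with 1115 in regrowth, and all 10 reached 1 FPKM. After 7 cycles 5 of the 10 were at least 2-fold above vehicle and none below it, against 4.77% and 3.09% of all genes tested. Among the 10, Krt5 was 24.2-fold, Elf3 4.76-fold and Krt14 3.28-fold above vehicle after 7 cycles. Krt5 was also 15.7-fold above vehicle after 2 cycles, where Serpinb5 was 1.26-fold above it. With 1 added to each FPKM, no group was 2-fold from vehicle for Serpinb5 (log2 difference 0.76 after 7 cycles). The 11 cornified epithelium markers, genes of the outer skin layers, summed to 2.63, 41.8, 2.17, 15.5 and 2.39 FPKM from vehicle to regrowth. The part of the epithelial, cornified or muscle markers that were high after 7 cycles in the Serpinb5 level was not tested.

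**Figure D5:**
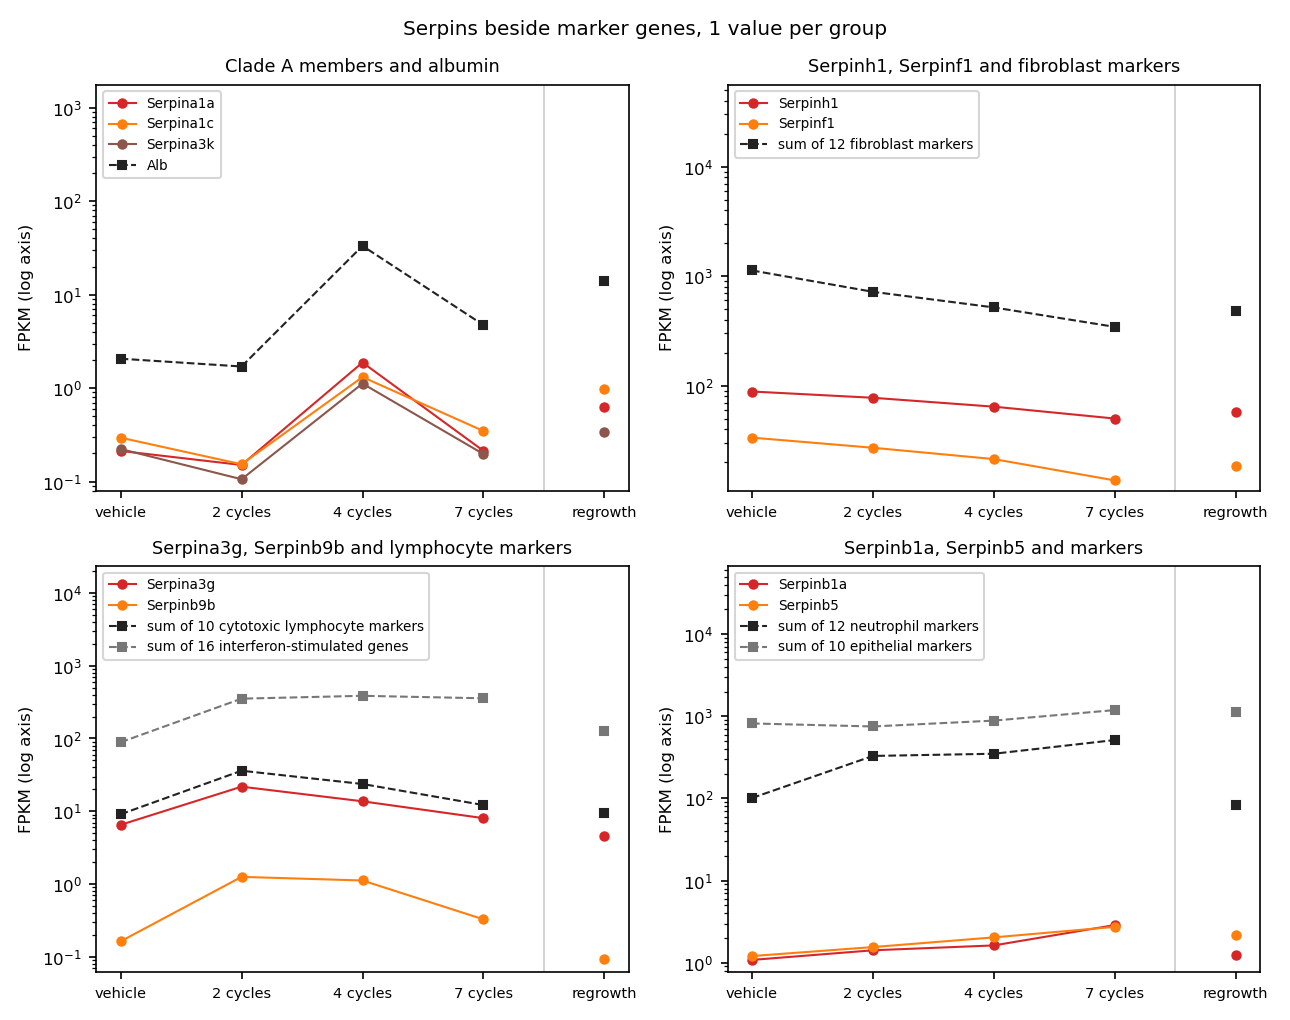
FPKM (log axis) of selected serpins (solid lines) and of marker genes or summed marker lists (dashed lines) in the 5 groups, 1 value per group, with regrowth set apart from the treatment series. Alb peaks after 4 cycles at 33.2 FPKM with Serpina1a, Serpina1c and Serpina3k, and Serpinh1 and Serpinf1 have the group order of the fibroblast sum, which runs from 1129 to 345 FPKM.

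The Serpina1 copies encode alpha-1 antitrypsin, the plasma inhibitor of neutrophil elastase that hepatocytes secrete. Serpina1a, Serpina1b, Serpina1c and Serpina1d each stood higher after 4 cycles and in regrowth than in the other groups. After 4 cycles 3 copies were above 1 FPKM. Serpina1e, which did not exceed 0.0521 FPKM, was lower after 4 cycles than in vehicle tumors. Serpina1a was listed at 0.213 FPKM in vehicle tumors, 0.150 after 2 cycles, 1.88 after 4, 0.213 after 7 and 0.620 in regrowth, and was 6.33-fold above vehicle after 4 cycles (chr12:105091504-105101829, mm9). Serpina1c stood at 0.295, 0.153, 1.31, 0.348 and 0.970 FPKM, which is 3.58-fold above vehicle after 4 cycles (chr12:105133135-105143160, mm9). Serpina1b was the highest copy, at 1.27, 1.25, 2.29, 0.787 and 3.06 FPKM, and was 2.30-fold above vehicle in regrowth (chr12:104966365-104976399, mm9). The 4-cycle and regrowth groups were thus the upper pair for each of these copies, as they were for Serpina1d at 0.361 and 0.587 FPKM against 0.056 to 0.233 FPKM in the other groups.

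Serpina3k, a kallikrein-binding serpin of mouse liver, had its peak in the same group (chr12:105576695-105583949, mm9). It stood at 0.223, 0.106, 1.12, 0.197 and 0.339 FPKM from vehicle to regrowth and was 3.77-fold above vehicle after 4 cycles. The copies resemble each other, and the share of 50-base words found in other serpins was 51.4% for Serpina1a, 28.2% for Serpina1b, 73.3% for Serpina1c, 48.0% for Serpina1d and 13.7% for Serpina3k. How the authors' counting divided reads among them is uncertain.

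Several liver plasma protein genes were high in the same groups as these serpins. Of 13 found in the table, 10 reached 1 FPKM. At least 2-fold above vehicle were 8 of these 10 after 4 cycles, 1 of 6 after 2, 1 of 5 after 7 and 4 of 6 in regrowth. Over all genes tested the shares were 3.65%, 3.23%, 4.77% and 1.72% in that order. Some of the 10 were under 1 FPKM in vehicle tumors and met the minimum only through groups where they were higher. Alb, serum albumin, stood at 2.06 FPKM in vehicle tumors, 1.70 after 2 cycles, 33.2 after 4, 4.73 after 7 and 14.1 in regrowth, and Apoa2, an apolipoprotein of high density lipoprotein, at 2.13, 1.51, 20.4, 2.64 and 10.4 FPKM. Albumin was therefore highest in the same 2 groups as Serpina1a, Serpina1b, Serpina1c and Serpina1d. The list summed to 74.1, 52.7, 140, 46.9 and 73.4 FPKM, and no gene of it was at 0 in all groups. Trf, transferrin, which was named after its values were seen, made up 65.6 FPKM of the vehicle sum and stood at 38.9 FPKM in regrowth, 1.68-fold below vehicle. The other 12 genes summed to 8.58, 7.62, 73.5, 12.0 and 34.5 FPKM. The part of liver RNA in the levels of these serpins was not tested, nor could single pools be told apart in a group value.

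Windows of Serpina1a, Serpina1b, Serpina1c and Serpina1d are shown because these genes were highest in the same pair of groups. They are RefSeq windows on GRCm38.p6, all on the minus strand of chromosome 12, at chr12:103863813-103863862, chr12:103738390-103738439, chr12:103905150-103905199 and chr12:103773823-103773872 in the order printed, and the capitals mark the AP-1 letters TGANTCA, which 11 of the 52 serpin genes with a window hold.
Serpina1a: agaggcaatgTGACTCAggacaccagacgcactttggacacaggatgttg
Serpina1b: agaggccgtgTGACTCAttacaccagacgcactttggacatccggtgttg
Serpina1c: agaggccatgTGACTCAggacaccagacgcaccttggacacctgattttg
Serpina1d: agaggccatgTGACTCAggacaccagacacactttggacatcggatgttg
Over the whole 250 bases before the start these 4 windows were 84.3 to 91.4% identical in pairs, and 58.8 to 64.2% identical to that of Serpina1e, which did not exceed 0.0521 FPKM.

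Regrowth was also set against 4 cycles, the treatment those tumors had received, to ask which levels differed 18 days after the drug was halted. Of 18 members tested, 7 were at least 2-fold lower and none higher, where 4.31% of 11678 genes were lower and 0.985% higher. The 7 were Serpinb9b, Serpina1a, Serpina3n, Serpina3g, Serping1, Serpina3h and Serpina3k, with folds from 2.03 to 6.33. Serpinb9b, Serpina1a and Serpina3k met the minimum only through the 4-cycle group, where they were high. Without the serpins that share sequence, or with 1 added to each FPKM, 3 were lower. The median log2 difference of the members was -0.50, and -0.06 over all genes tested. Serpinb2 was below the minimum in both groups. Age differs between these groups too.

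Between 2 and 7 cycles, which differ in age and in the number of pools, 4 of 15 members were at least 2-fold lower at 7 cycles and none higher, where 3.29% of 11809 genes were lower and 2.58% higher. They were Serpinb9b (3.17-fold), Serpina3g (2.69-fold), Serpina3h (2.32-fold) and Serping1 (2.06-fold). Serpinf1 was 1.98-fold lower, just outside the limit, and Serpinb1a 1.96-fold higher, just outside it in the other direction. With 1 added to each FPKM, or without the serpins that share sequence, 2 were lower. With 0.01 added, with median scaling or with no minimum, 1 was higher. The median log2 difference of the members was -0.60, and -0.05 over all genes tested.

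Among the 44 members that stayed under 1 FPKM, 40 were above 0 in at least 1 group. None of the 40 had its highest value in vehicle tumors, 18 had it after 2 cycles, 14 after 4, 3 after 7 and 5 in regrowth. In clade A 16 of these low members peaked after 2 cycles (6), 4 cycles (6) or in regrowth (4), and in clade B 19 peaked after 2 cycles (12), 4 cycles (4) or 7 cycles (3). The highest were Serpina3f, Serpinb8, an inhibitor of furin, and Serpina1d. Serpinb8 stood at 0.434, 0.696, 0.684, 0.509 and 0.341 FPKM from vehicle to regrowth. Over all 63 members, 16 were listed at 0 in vehicle tumors, 8 after 2 cycles, 11 after 4, 9 after 7 and 20 in regrowth. Such low levels rest on few reads, and their depth is unknown. The number of pools also differed between groups, and the same counts were not made over all low genes. The counts are therefore given as values and are not read as a trait of serpins.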

How the data were processed

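RNA-seq was performed by the authors on poly(A)-selected, strand-specific libraries from 4T1 tumors. The submitters' processing notes name TopHat2, featureCounts, edgeR and genome build mm9. Versions, the annotation and the use of strand in counting are not given in these sources. FPKM values were deposited by the authors as 1 value per gene and group, and how they combined libraries is not stated. Low values lie on steps, but group values merge libraries, so read depth was not recovered. Another 15 columns of values were not used. Of these, 12 hold the authors' ratios, fold changes and p-values, and 3 repeat vehicle.

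Of 24197 lines, 27 with a date in place of a symbol were dropped. Log2((FPKM + 0.1)/(FPKM + 0.1)) was computed for 6 comparisons, with calls as in the report, in Python 3.11.15 with pandas 2.3.3 and numpy 2.4.6. The calling step was tested on simulated data. The planned edgeR test needs counts per library and was not run. Sequence sharing was measured as 50-base words in GENCODE M21 transcripts, in which all 63 symbols were found. Promoter windows came from RefSeq (GRCm38.p6), were aligned with Biopython 1.88, and plotted values with matplotlib 3.10.9. Members, gene lists and limits were chosen with earlier results of these data known. Serpins of at least 1 FPKM in a group were named, with full values for those 2-fold from vehicle in some group and the 5 highest in vehicle. Of the others the highest 3 were named, and from each other list up to 4 genes of at least 1 FPKM with the largest difference from vehicle. The values of 1 member are not reported here, although counts and sums include it.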

Additional observations from a re-analysis of the deposited data

How the results depend on the processing

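Only group values were deposited in the table used here, so leaving out a library in turn could not be run. No paired analysis was possible because the table holds 1 value per group and none per pool. The alternative based on RefSeq protein identity was not run, and sharing of 50-base words, chosen after seeing the data, took its place. With a pseudocount of 1 in place of 0.1, the higher serpins numbered 2 after 2 cycles, 2 after 4, 0 after 7 and 0 in regrowth, and 2 were lower at 7 than at 2 cycles and 3 in regrowth than at 4 cycles. With a pseudocount of 0.01, 2 were lower after 4 cycles and 1 was higher at 7 than at 2 cycles. With no FPKM minimum, 10 were higher after 2 cycles, 11 after 4 and 4 in regrowth, and 1 was higher at 7 than at 2 cycles. With median scaling, 2 were lower after 4 cycles and 1 was higher at 7 than at 2 cycles. Without the serpins that share words, 2 were higher after 4 cycles and 0 in regrowth, 1 was lower after 2 cycles and 0 after 4, 2 were lower at 7 than at 2 cycles and 3 in regrowth than at 4 cycles. All remaining counts lay within 1.5 times the main count. Of 228 values of single serpins under the pseudocount of 1 or median scaling, 18 moved by more than 1.5 times, all with the pseudocount of 1, and 0 reversed. Depth limits the members near 1 FPKM, whose folds rest on few reads.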

Other observations

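Some serpins of stratified epithelium were under 1 FPKM in every group, levels that rest on few reads. The genes named here were chosen after their values were seen. Serpinb3a, Serpinb3b and Serpinb12, which in the mouse are made in keratinizing epithelia, stood at 0.255, 0.223 and 0.291 FPKM after 2 cycles, against 0.0107, 0.0253 and 0.0304 FPKM in vehicle tumors. After 7 cycles they stood at 0.132, 0.122 and 0.0810 FPKM, and in regrowth they did not exceed 0.0137 FPKM. The 11 cornified epithelium markers, the genes of the outer skin layers, summed to 2.63 FPKM in vehicle tumors, 41.8 after 2 cycles, 2.17 after 4, 15.5 after 7 and 2.39 in regrowth. Krt1 stood at 11.9 FPKM after 2 cycles and 3.80 after 7, and did not exceed 0.130 FPKM in the other groups. The part of skin in these serpin levels was not tested.

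Serpinc1, or antithrombin, and Serpinf2, the plasmin inhibitor of plasma, are products of the liver and were highest after 4 cycles, at 0.532 and 0.293 FPKM, against 0.0778 and 0.0798 FPKM in vehicle tumors. Alb was highest in the same group. Of inhibitors outside the serpin family, Slpi, an inhibitor of neutrophil elastase in secretions, stood at 58.0 FPKM in vehicle tumors, 176 after 2 cycles, 212 after 4, 270 after 7 and 118 in regrowth, which is 4.66-fold above vehicle after 7 cycles. Stfa3, a stefin, stood at 0.594 FPKM in vehicle tumors and 9.16 after 7 cycles.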
